A study of Mus musculus with 3 samples.

Results

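The genes of the cytosolic ribosome's own proteins were followed through beta, alpha and delta cells of mouse pancreatic islets. They were taken as the rows whose gene name starts with Rpl (large subunit) or Rps (small subunit), leaving out pseudogene names, the Rps6k kinases and Rpl7l names, which gave 80 of the 8236 genes in the deposited tables. Of these, 46 belong to the large subunit, 33 to the small subunit, and Rps19bp1, a partner of ribosomal protein S19, is not a ribosomal protein although its name passes the rule. Another 5 protein-coding genes that pass the rule (Rpl10l, Rpl22l1, Rpl36al, Rpl39l and Rpl3l) were in no table and were not analysed here.

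Islets came from 2 knockout mice, labelled IRE1[alpha][beta]-/-, and 1 control mouse, labelled IRE1[alpha]fl/fl, that is with the floxed gene. All 3 were NOD/ShiLtJ mice, a strain that develops autoimmune diabetes, were 5 weeks old and had been given tamoxifen (10 mg/ml on 5 days), the control included. IRE1α is a sensor of unfolded proteins in the endoplasmic reticulum, and the study compared the genotypes cell type by cell type. Which Cre drives the deletion and which exons it removes is not given in the sources used here. Islets stood overnight in culture before dissociation, and transcripts were tallied in droplets by unique molecular identifier (UMI), each standing for 1 captured molecule.

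A ribosome joins a small subunit, which reads the mRNA, to a large subunit, which makes the peptide bonds. In mammals nearly every ribosomal protein is encoded by 1 active gene among many pseudogenes, the proteins are needed in equal numbers, and their mRNAs start with a pyrimidine tract (the TOP motif) through which the kinase mTORC1 controls their translation. Beta cells make large amounts of secreted protein, and unfolded protein in their endoplasmic reticulum is met by a fall in translation.

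The tables give mean UMIs per cell of genes that the authors listed as different between the genotypes. Beta cells (815 knockout cells, both mice pooled, and 829 control cells) had 8193 listed genes, 80 of them Rpl or Rps genes. Alpha cells (304 and 177 knockout cells and 142 control cells) had 186 listed genes with 19 such genes, 10 of the large and 9 of the small subunit. Delta cells (138 and 78 knockout cells and 101 control cells) had 231 listed genes with 38, 22 of the large and 16 of the small subunit. All 19 were among the 38. Because a gene is in a table only if it differed by the authors' test, every count below covers listed genes, and in alpha and delta cells it describes a chosen minority of the family. Listed genes summed to 24796 UMIs per knockout beta cell and 31552 per control beta cell. A ratio is UMIs per knockout cell over UMIs per control cell, and brackets hold its exact 95% interval, which covers counting error only. With 1 control mouse no difference could be set against the spread between control mice, so a fold of 1.5 was used as a rule of size.

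Libraries differed in what else the cells held. Insulin and amylin transcripts (Ins1, Ins2, Iapp) made up 53.9% of listed UMIs in knockout and 69.9% in control beta cells. Comparisons are therefore also given scaled to the listed total without the hormone genes. For beta cells these are the 3 just named, and for alpha and delta cells also Gcg, Sst, Ppy and Pyy, where listed. Haemoglobin transcripts, of red cells, summed to 22.6 UMIs per knockout and 0.0639 per control beta cell, and the 4 listed of 6 alpha-cell markers to 154 and 61.6. Ppy, of PP cells, had 65.3 UMIs per knockout and 8.88 per control beta cell, the 3 listed of 4 delta-cell markers summed to 64.6 and 39.6, and the 2 listed of 4 duct markers to 60.3 and 32.7. Of the fixed beta-cell markers, all 6 were listed in beta cells, and they summed to 13364 UMIs per knockout and 22059 per control cell. No alpha-cell marker was listed in alpha cells, so that label could not be checked there. Rbp4 alone of the delta-cell markers was listed in delta cells, with 84.2 and 69.1 UMIs per cell in the knockout mice and 136.9 in the control mouse. A single gene cannot check that label. In alpha cells Ppy had 341.2 and 322.5 against 426.9, and Ins1, Ins2 and Iapp summed to 251.1 and 303.9 against 433.7. Sst and Rbp4 summed there to 19.5 and 51.9 against 52.5. Mitochondrially encoded genes took 4.71% of the non-hormone UMIs in knockout and 5.70% in control beta cells. The part of these differences in the results was not tested. The targeted gene, Ern1, was not lower: it had 0.742 UMIs per knockout and 0.509 per control beta cell, a ratio of 1.46 [1.29 to 1.66]. Reads outside the deleted exons check nothing, so "knockout" is used below as the label gives it.

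The starts of a few of the genes are shown because those genes set the ends of the beta-cell range described below. RefSeq promoters (GRCm38.p6) were found for 60 of the 80 genes (Rpl3 and Rplp1 were not among them). Each line gives 40 bases before and 20 from the start of transcription, on the gene's own strand, and capitals mark runs of at least 6 pyrimidines beginning with C, within 25 bases of the start, which is the kind of tract a TOP mRNA begins with. The first 3 are genes of the stalk, all among the lowest 9 of the 80 by ratio in beta cells:
Rpl12, chr2:32961672-32961731, plus strand: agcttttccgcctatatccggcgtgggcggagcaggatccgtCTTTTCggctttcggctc
Rplp0, chr5:115559427-115559486, plus strand: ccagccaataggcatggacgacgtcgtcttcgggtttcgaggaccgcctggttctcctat
Rplp2, chr7:141447611-141447670, plus strand: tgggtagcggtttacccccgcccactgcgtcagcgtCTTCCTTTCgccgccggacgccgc
The next 3 belong to genes that were among the highest:
Rpl6, chr5:121204461-121204520, plus strand: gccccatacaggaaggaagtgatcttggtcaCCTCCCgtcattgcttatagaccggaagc
Rpl13a, chr7:45128726-45128785, minus strand: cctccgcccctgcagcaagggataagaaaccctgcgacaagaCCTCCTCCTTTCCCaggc
Rps7, chr12:28635934-28635993, minus strand: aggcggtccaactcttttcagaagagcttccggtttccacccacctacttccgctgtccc
The last pair is a gene and its retrocopy, which lack a shared promoter but share the transcribed start:
Rps27, chr3:90213629-90213688, minus strand: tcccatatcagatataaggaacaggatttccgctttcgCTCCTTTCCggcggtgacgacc
Rps27rt, chr9:114982720-114982779, minus strand: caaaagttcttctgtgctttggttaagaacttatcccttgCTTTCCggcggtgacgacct

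In the 60 promoters such a run was found for 68.3% of genes, against 38.5% of all 27025 genes with a promoter in the RefSeq table and 39.9% of the other listed genes. A longer run, of at least 8, was found in 51.7% against 17.7% of all and 19.98% of the other listed genes. Over the whole 300-base window on either strand, CCGGAAG, the core bound by ETS factors, was in 41.7% of these promoters against 9.93% of all and 20.7% of the other listed genes. AAGATGG, which holds the core bound by YY1, was in 15.0% against 7.28% of all and 9.08% of the other listed genes. TATAAA, searched on the gene's strand 20 to 40 bases before the start, was in 0 of 60 promoters, against 2.31% of all and 1.497% of the other listed genes. In beta cells the median ratio was 1.27 for genes with the run of 6 and 1.23 for those without, and 1.22 with and 1.27 without CCGGAAG. Rplp0 and Rps7, at opposite ends of the beta-cell range, have no such run within 25 bases of the start (Rps7 has one further upstream), and Rplp2, at the lower end, and Rpl13a, at the upper, have long ones. A match describes letters in a window and says nothing of what binds there.

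Knockout beta cells held more ribosomal protein mRNA per cell, but the family made up nearly the same share of the non-hormone transcripts as in control cells. The 80 genes summed to 2396 UMIs per knockout cell and 1938 per control cell, a ratio of 1.24 [1.23 to 1.24]. Of the listed UMIs without Ins1, Ins2 and Iapp they were 20.96% in knockout cells (Clopper-Pearson 95% interval 20.93 to 20.98) and 20.40% in control cells (20.38 to 20.43). Of all listed UMIs they were 9.66% in knockout and 6.14% in control cells.

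**Figure D1:**
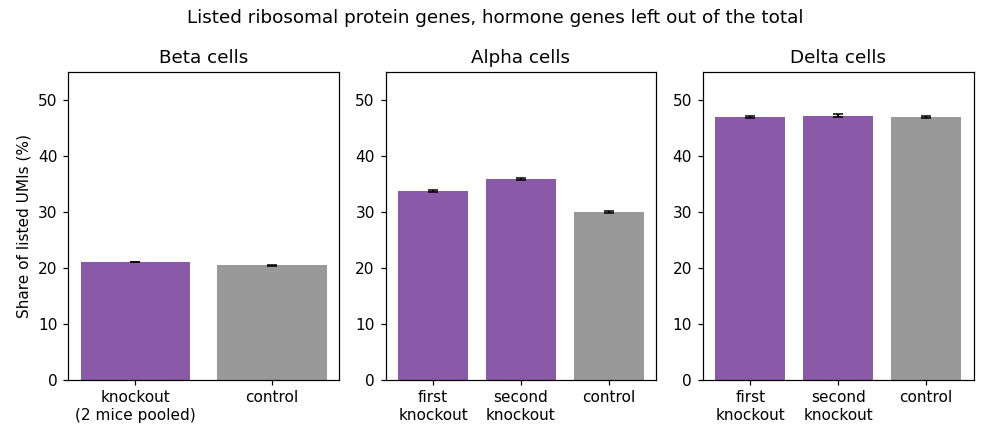
Share of listed UMIs, in percent, taken by the listed Rpl and Rps genes in each column. Hormone genes are left out of the total: Ins1, Ins2 and Iapp for beta cells, and also Gcg, Sst, Ppy and Pyy, where listed, for alpha and delta cells. Bars start at 0 and lines are Clopper-Pearson 95% intervals for counting error. Beta cells stand at 20.96% in the knockout and 20.40% in the control, alpha cells at 33.7% and 35.8% against 29.9%, and delta cells at 47.0% and 47.2% against 46.9%; the number of listed genes differs between the panels.

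By number, 78 of 80 were above the control in knockout beta cells, where 95% of all listed genes were. At the rule of size 7 were higher, against 45.7% of all listed genes, and 0 were lower, against 2.47%. The median ratio was 1.25 for the family and 1.45 for all listed genes, and the middle of the family was tight, with quartiles of 1.17 and 1.37 against 1.25 and 1.82. Scaled without the hormone genes, 54 of 80 were higher (80.5% of all listed genes), 0 passed 1.5-fold in either direction (25.7% of all listed genes were higher and 2.8% lower by that much) and the median ratio was 1.04 against 1.21. Abundant genes gave another picture: 232 other listed genes with at least 5 UMIs per cell, as the mean of both genotypes, had a median scaled ratio of 0.907 with quartiles of 0.787 and 1.13, and 36.6% of them were higher. The 77 Rpl and Rps genes at that level had a median of 1.04. No test was possible for any of these, as beta cells have 1 column per genotype.

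The subunits differed little. Large-subunit genes summed to 1415 UMIs per knockout cell and 1160 per control cell, a ratio of 1.22 [1.216 to 1.223], and small-subunit genes to 980.1 and 776.8, a ratio of 1.26 [1.26 to 1.27]. The median ratio was 1.26 for the large and 1.25 for the small subunit, a difference of 0.01 on the log2 scale, which no scaling alters. Both genes below 1 were of the large subunit, as were 3 of the 7 genes past 1.5-fold.

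The spread within the family had an order, with the large subunit's stalk at its lower end. The stalk is the flexible arm that calls elongation factors to the ribosome, made of P0 (Rplp0) and pairs of P1 and P2 (Rplp1, Rplp2), beside its base protein uL11 (Rpl12). Rpl12 had 18.3 UMIs per knockout and 19.7 per control cell, a ratio of 0.926 [0.906 to 0.947], the lowest of the 80. Rplp1 had 49.5 and 48.7 (1.01 [1.00 to 1.03]), Rplp2 37.8 and 36.2 (1.04 [1.03 to 1.06]) and Rplp0 33.2 and 30.8 (1.08 [1.06 to 1.10]). All 4 lay among the lowest 9 of 80, and together they held 138.7 UMIs per knockout and 135.5 per control cell. Scaled without the hormone genes, each of the 4 was below the control, at 0.769 to 0.895. The 4 were picked out with these values known, so their shared place is a description.

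The other low genes of the large subunit came from several places on the ribosome. Rpl39, a very small protein of the exit tunnel, had 32.2 UMIs per knockout and 32.9 per control cell, a ratio of 0.978 [0.961 to 0.994]. Rpl38, which in mouse embryos is needed for translation of certain Hox mRNAs, had 36.1 and 35.6 (1.01), and Rpl28 had 22.5 and 21.7 (1.04). Rpl10, one of the last proteins to join the large subunit, had 34.6 and 32.2 (1.08). Among the low genes of the small subunit were Rps20 with 31.7 UMIs per knockout and 30.8 per control cell (1.03), Rps21 with 27.7 and 25.6 (1.08), Rps12 with 25.9 and 23.6 (1.10) and Rps26, which lies where mRNA leaves the subunit, with 21.8 and 19.5 (1.12). Of all 80 genes, 22 had a scaled interval wholly below 1, 13 an interval that held 1 and 45 one wholly above it.

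**Figure D2:**
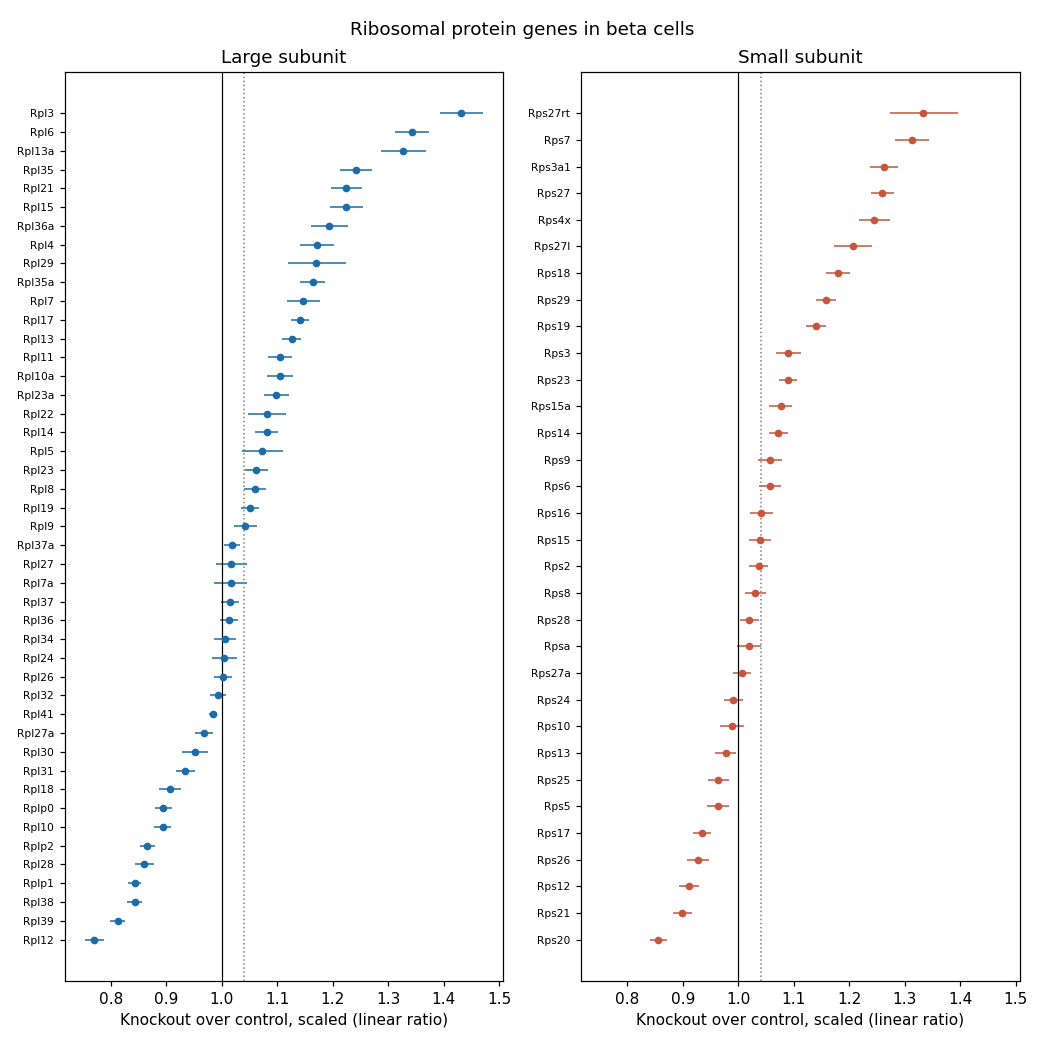
Ratio of UMIs per knockout over control beta cell for large-subunit (left) and small-subunit genes (right), scaled without the hormone genes, on a linear axis; lines are exact 95% intervals for counting error, the solid line is 1 and the dotted line the median of 1.04. Large-subunit genes run from Rpl12 at 0.769 to Rpl3 at 1.43. Small-subunit genes span a narrower range, from Rps20 at 0.856 to Rps27rt at 1.33. Rplp0, Rplp1 and Rplp2 lie towards the lower end, as does Rpl12.

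At the upper end, Rpl3, which reaches to the site of peptide bond formation, had 17.5 UMIs per knockout and 10.2 per control cell, a ratio of 1.72 [1.68 to 1.77]. Rpl6 had 24.2 and 15.0 (1.62 [1.58 to 1.65]). Rpl13a, known in human monocytes as a part that leaves the ribosome to silence mRNAs, had 13.2 and 8.24 (1.60 [1.55 to 1.65]). Rpl35, at the mouth of the exit tunnel, had 20.9 and 13.97 (1.49) and Rpl21 22.003 and 14.9 (1.47).

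In the small subunit, Rps7, needed for processing of small-subunit rRNA, had 22.8 UMIs per knockout and 14.4 per control cell (1.58 [1.54 to 1.62]). Rps3a1 had 29.96 and 19.7 (1.52) and Rps4x, on the X chromosome, 23.5 and 15.7 (1.499, just under the rule of size). Rps27, a zinc finger protein, had 43.3 and 28.5 (1.52 [1.49 to 1.54]), and its paralog Rps27l, a p53 target, 13.7 and 9.46 (1.45). The 7 genes past the rule of size were Rpl3, Rpl6, Rps27rt, Rpl13a, Rps7, Rps3a1 and Rps27.

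Rps27rt had 5.77 UMIs per knockout and 3.597 per control beta cell, a ratio of 1.61. It is a retrocopy of Rps27 on chromosome 9, and the promoter tables of the pair share a run of 38 bases that begins at base 2 of Rps27 and base 1 of Rps27rt, so reads of one may have been counted for the other and its value is uncertain. The 7 pseudogene rows that the name rule left out of the beta-cell table had ratios of 1.24 to 2.05 with a median of 1.52, where 95% of all listed genes were above 1 and their median was 1.45.

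Several other members with known duties outside the ribosome are given by name. Rpl5 and Rpl11, which carry 5S rRNA and bind the p53 ligase Mdm2 when assembly fails, had 9.15 UMIs per knockout and 7.09 per control cell (1.29) and 28.0 and 21.1 (1.33). Rpl22, which mammals can lack because of its paralog, had 11.1 and 8.51 (1.302). Rps6, the substrate of S6 kinase, had 29.2 and 22.9 (1.27), Rpsa, once described as a laminin receptor, 22.7 and 18.5 (1.23), and Rps27a, made as a fusion with ubiquitin, 40.5 and 33.4 (1.21). Rpl41, the smallest member, had 169.5 and 143.0 (1.18). Rps19bp1 had 0.796 and 0.665 (1.20).

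The beta-cell ratio went with coding length within the family. Over 77 genes, leaving out Rps19bp1, Rps27l and Rps27rt, Pearson's r between the log2 ratio and coding length was 0.37 and Spearman's rho 0.37. It was 0.45 (rho 0.41) for the 46 large-subunit genes and 0.20 (rho 0.29) for 31 of the small subunit, and 0.06 over 7791 listed genes of any kind. Split by coding length (GENCODE M21), the median ratio was 1.19 for the 26 shortest genes (138 to 405 nucleotides), 1.25 for the 25 in the middle (408 to 576) and 1.31 for the 26 longest (582 to 1257). After scaling without the hormone genes, 12 of the 26 shortest and 23 of the 26 longest were higher in the knockout. The 26 shortest also had a median of 29.2 UMIs per control cell and the 26 longest one of 19.9. The ratio was lower where the control level was higher, at r = -0.44 over the 77 genes and r = -0.65 over all 7791. In this relation the control value enters both measures. Against the geometric mean of both genotypes, r was -0.33 over the 77 genes and -0.55 over all 7791. By subunit it was then -0.41 for the large and 0.01 for the small. Genes are not independent replicates, and all points share the same pair of columns.

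**Figure D3:**
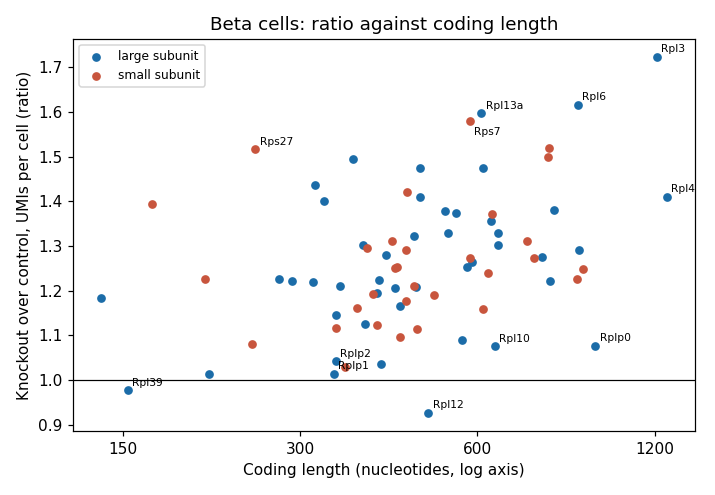
Ratio of UMIs per knockout over control beta cell, not scaled, against coding length in nucleotides on a log axis, 1 point per gene of the large (46) and small (31) subunit. Longer genes lie higher on the whole, with Rpl3 at 1.72, while the stalk genes Rplp0 at 1.08 and Rpl12 at 0.926 lie low for their length.

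In alpha cells, 18 of the 19 listed genes had more UMIs per cell in both knockout mice than in the control mouse, where 37.1% of all listed alpha-cell genes did, and 0 were lower in both, against 51.1%. They summed to 542.3 and 574.2 UMIs per cell in the knockout mice and 490.3 in the control mouse, ratios of 1.11 [1.10 to 1.12] and 1.17 [1.16 to 1.18]. The median ratio over the mean of the knockout mice was 1.13, against 0.816 over all listed genes. As a share of the non-hormone UMIs they were 33.7% and 35.8% in the knockout mice and 29.9% in the control mouse. Scaled without hormone genes, again 18 were above the control in both mice, against 38.2% of all listed genes. For 12 of the 19 the smaller excess over the control exceeded the gap between the knockout mice, against 25.3% of all listed genes. The second knockout mouse was above the first for 18 of 19. limma, fitted over all 186 genes with 1 residual degree of freedom, called 0 of the 19 at an adjusted p under 0.05 and 0 at an unadjusted p under 0.05, where it called 0% of all listed genes higher and 3.76% lower. The smallest p among them was 0.12 (adjusted 0.249). Mitochondrially encoded genes, which made up 25.9% and 21.7% of the UMIs without Ins1, Ins2 and Iapp in the knockout mice against 19.2% in the control mouse, were higher as well, and their part in the result was not tested.

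By ratio, the highest genes in alpha cells were Rps27rt, Rps27, Rps28 and Rps29, all of the small subunit, followed by Rpl37a. Rps27, the zinc finger protein, had 30.7 and 37.1 UMIs per cell in the knockout mice and 26.7 in the control mouse, a ratio of 1.27. Rps28 had 26.1 and 31.0 against 22.9 (1.25), and Rps29, another zinc-binding protein, 36.3 and 41.9 against 31.9 (1.23). In these 3 genes both knockout mice stood above the control mouse, as in 37.1% of all listed alpha-cell genes, with the second the higher. Rps21 had 26.0 and 28.3 against 23.2 (1.17). Of the large subunit, Rpl37a had 38.9 and 44.5 against 34.8 (1.20), Rpl37 31.1 and 35.2 against 29.1 (1.14) and Rpl38 27.1 and 33.2 against 26.2 (1.15). Smaller differences were seen for Rps19, the gene most often mutated in the human anaemia named after Diamond and Blackfan, with 35.3 and 37.8 against 32.8 (1.11), for Rps24 with 34.9 and 37.3 against 32.6 (1.11), for Rpl36 with 33.0 and 36.1 against 31.5 (1.10) and for Rpl35a with 29.6 and 32.2 against 28.9 (1.07). Rpl34 (26.4 and 29.2 against 24.9), Rps15 (26.2 and 27.6 against 25.05) and Rps20 (24.8 and 27.5 against 23.5) were at ratios of 1.11, 1.08 and 1.11. Rps27rt followed Rps27, with 4.28 and 5.64 against 3.75 (1.32).

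Delta cells gave no such lean once hormone transcripts were set aside. Of the 38 listed genes, 27 were above the control in both knockout mice, where 71.4% of all listed delta-cell genes were. They summed to 993.7 and 887.0 UMIs per cell in the knockout mice and 862.8 in the control mouse, ratios of 1.15 [1.14 to 1.16] and 1.03 [1.02 to 1.04], and the median ratio was 1.07 against 1.34 over all listed genes. All 38 were above the control in the first knockout mouse and 27 in the second, and the first was above the second for 35. Scaled to the listed total without hormone genes, 15 were above the control in both knockout mice (61% of all listed genes) and 13 below it in both (23.4%), with a median ratio of 0.987. The family's share of non-hormone UMIs was 47.0% and 47.2% in the knockout mice and 46.9% in the control mouse. That near-equal share depended on which hormone genes were left out. With only Ins1, Ins2 and Iapp left out, it was 43.7% and 45.6% in the knockout mice, both below the 46.6% of the control mouse. The alpha-cell markers listed here, Ttr and Gcg, summed to 163.5 and 66.1 UMIs per cell in the knockout mice and 11.0 in the control mouse. Mitochondrially encoded genes took 15.7% and 13.6% of the UMIs without Ins1, Ins2 and Iapp in the knockout mice and 11.1% in the control mouse. The part of both in the result was not tested. limma over all 231 genes called 0 of the 38, and 12.6% of all listed genes higher and 10.4% lower. Rps27rt had the largest log2 difference of the 38, at 0.55 ± 0.25 SE, and was higher in 2 of 2 knockout mice. Scaled without hormone genes, its log2 difference was 0.44 ± 0.22 SE. With scaling to the full listed total, which the hormone genes dominate (Iapp alone took 26.0% and 26.4% of it in the knockout mice and 49.7% in the control mouse), limma called 24 of the 38, all higher, against 34.6% of all listed genes higher and 3.03% lower.

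In delta cells the highest by ratio were Rps27, Rps28, Rps21 and Rps29, behind the Rps27rt copy. Rps27 had 31.2 and 32.5 UMIs per cell in the knockout mice and 23.7 in the control mouse, a ratio of 1.34, and stayed above the control when scaled (1.14 and 1.34). Rps28 had 25.8 and 25.6 against 20.1 (1.28), Rps21 19.2 and 17.7 against 14.7 (1.26) and Rps29 33.4 and 31.9 against 26.6 (1.23). For each of these 4, both knockout mice were above the control mouse, raw and scaled. So were 71.4% (raw) and 61% (scaled) of all listed delta-cell genes, and these 4 were picked by their ratio. At the other end were Rpl26 with 29.5 and 25.5 against 27.5 (1.00) and Rpl41 with 89.9 and 83.8 against 86.3 (1.01), where the control mouse lay between the knockout mice. Other large-subunit genes were at middle values, such as Rpl37a with 35.4 and 33.1 against 30.7 (1.12), Rpl37 with 29.1 and 27.3 against 24.4 (1.16) and Rpl27a with 29.8 and 25.2 against 25.6 (1.08). Rpl32 had 33.0 and 28.4 against 29.7 (1.03), Rps23, at the decoding site, 35.1 and 31.4 against 31.3 (1.06), Rps14 33.8 and 32.7 against 32.0 (1.04) and Rps19 31.8 and 28.3 against 26.4 (1.14), and Rpl38 28.1 and 27.9 against 26.3 (1.07). Rplp1, the stalk member listed here, had 31.6 and 25.4 against 27.1 (1.05).

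**Figure D4:**
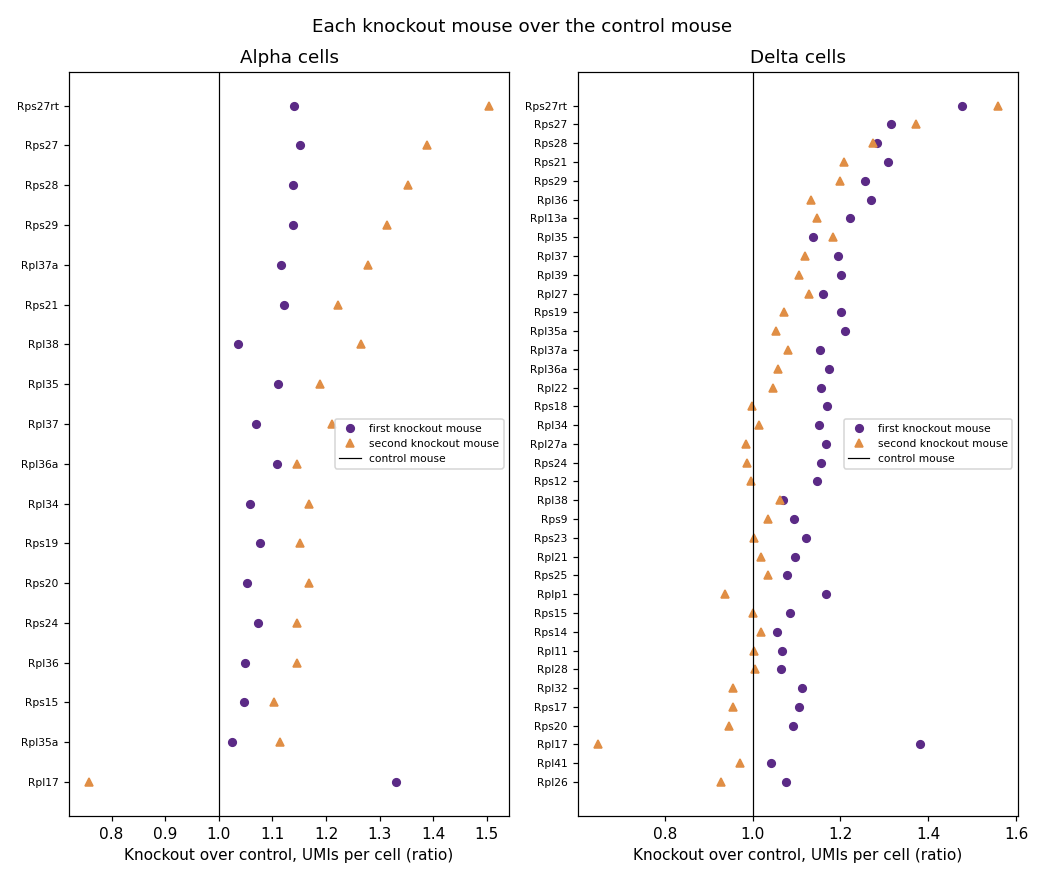
Ratio of UMIs per cell of each knockout mouse (circle, first; triangle, second) over the control mouse (line at 1) for listed genes of alpha and delta cells, not scaled, sorted by the mean ratio. In alpha cells all but Rpl17 lie right of the line for both mice; in delta cells most do, the first mouse mostly higher, and the mice lie furthest apart at Rpl17 in both.

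Rpl17, a protein at the exit tunnel, set the knockout mice further apart than any other listed member did. It had 58.5 and 33.3 UMIs per alpha cell in the knockout mice and 44.0 in the control mouse, and 53.9 and 25.3 per delta cell against 39.0. In both cell types the first knockout mouse was above the control mouse and the second below it. The second mouse over the first was 0.57 in alpha and 0.469 in delta cells, whereas the other 18 genes in alpha cells ran from 1.04 to 1.32 and the other 37 in delta cells from 0.803 to 1.06. Among all listed genes Rpl17 was not the extreme: by this measure it ranked 15 from the lowest in each of the 2 cell types. The mean of the knockout mice lay near the control, at ratios of 1.04 and 1.02, yet Rpl17 ranked 2 of 186 and 2 of 231 by p in the authors' deposited tables for these cells. In pooled knockout beta cells it had 51.1 UMIs per cell, against 37.2 per control cell (1.37), and how that divided between the mice was not analysed here.

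In alpha and delta cells the relation to coding length was negative in all but 1 of the knockout columns. Over the 18 alpha-cell genes without Rps27rt, r between length and the log2 ratio was 0.07 in the first knockout mouse and -0.67 in the second. Over 37 delta-cell genes it was -0.19 and -0.41. Without Rpl17 the values were -0.42 and -0.73 in alpha cells and -0.31 and -0.39 in delta cells. Both mice are set over the same control mouse, so their values are not independent, and the genes listed differ from those in beta cells.

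For the 19 genes listed in all 3 tables, the beta-cell ratio, not scaled, was the largest of the 3 for 15. The median over the 19 was 1.25 in beta cells and 1.13 in both alpha and delta cells. Exceptions were Rpl38 (beta 1.01, alpha 1.15, delta 1.07), Rps20 (beta 1.03, alpha 1.11, delta 1.02), Rps21 (beta 1.08, alpha 1.17, delta 1.26) and Rps28 (beta 1.23, alpha 1.25, delta 1.28), the first 3 of them low in the beta-cell order. This order did not hold up as a general one after scaling without hormone genes. The scaled median was then 1.15 for these 19 genes in alpha cells. The middle gene of the same 19 stood at 1.04 in beta cells (Rps15) and at 1.04 in delta cells (Rpl35a). Over the larger sets the scaled median was 1.04 for all 80 genes in beta cells and 0.987 for all 38 in delta cells. The difference between cell types was not tested, since beta cells have no column per mouse.

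In the control mouse, delta cells held fewer UMIs of these genes than beta cells. Of the 38 genes listed in both, 31 were lower in delta cells, with a median of 0.84 times the beta-cell level, but other shared genes stood at 0.834, and after scaling to the shared listed genes without hormones the ratio became 1.19. Alpha over beta cells had a median of 1.03 over 19 genes, with 10 higher and 9 lower, and 1.11 when scaled. Delta over alpha cells had a median of 0.835, with 18 of 19 lower, and 0.946 when scaled. Among the 19, Rps21 had the lowest ratio of delta over beta cells, with 14.7 UMIs per delta, 23.2 per alpha and 25.6 per beta cell, whereas Rpl36a had 11.7, 12.5 and 10.2. These are values of 1 mouse with no spread.

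**Figure D5:**
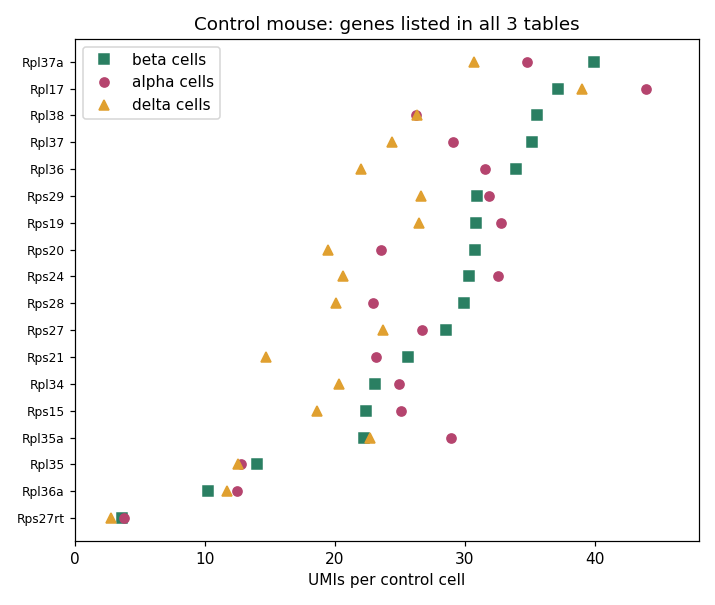
UMIs per cell of the control mouse in beta (squares), alpha (circles) and delta (triangles) cells for genes listed in all 3 tables, on a linear axis from 0. Delta cells have the lowest value for 14 of them, and Rps21 stands at 14.7 in delta, 23.2 in alpha and 25.6 in beta cells.

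Genes that work with the ribosome were listed in beta cells alone, since the alpha and delta tables held none of the 7 lists' genes. Of the ribosomal proteins with other names, Fau had 33.6 UMIs per knockout and 32.6 per control cell (1.03) and Rack1 8.70 and 7.24 (1.20). Other translation genes whose mRNAs also begin with a TOP tract lay close to the listed genes as a whole: 16 of 17 were listed, and all 16 were higher, where 95% of all listed genes were. Of them 8 were past 1.5-fold, where 45.7% of all listed genes were, and the median was 1.52 (1.27 scaled) against 1.45 (1.21 scaled). Npm1, a nucleolar chaperone, had 5.07 UMIs per knockout and 2.92 per control cell (1.74), the initiation factor gene Eif3e 2.07 and 1.19 (1.73) and the elongation factor gene Eef1a1 48.1 and 28.0 (1.72), while Btf3 had 8.39 and 6.87 (1.22) and Tpt1, with 39.0 and 38.5, stood at 1.01.

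Ribosome assembly genes had the median of the ribosomal proteins. Of 41, 29 were listed and 29 were higher, 6 past 1.5-fold, with a median of 1.25 (1.04 scaled), against 95% higher, 45.7% past 1.5-fold and a median of 1.45 (1.21 scaled) over all listed genes. Sbds, which frees new large subunits for use, had 1.00 UMIs per knockout and 0.497 per control cell (2.02) and Dkc1, of the pseudouridylation complex, 0.185 and 0.112 (1.65), while Rrp1 (1.09) and Tsr1 (1.02) were lowest. Of the mTORC1 and TOP regulators 22 of 26 were listed, with 22 higher, 2 past 1.5-fold and a median of 1.28 (1.06 scaled), beside the same 95%, 45.7% and 1.45 (1.21 scaled), from Sesn1 (1.71) and Deptor (1.61), both inhibitors of mTORC1, down to Tsc2 (1.13) and Rraga (1.06). The 4 listed of 7 ribosomal protein chaperones had a median of 1.36, from Tsr2 (1.45) to Grwd1 (1.31), and 2 of 10 snoRNA host genes were listed, Snhg12 (2.04) and Snhg6 (1.25). Of 14 ribosome quality control genes 5 were listed: Map3k20, the kinase that senses stalled ribosomes, had 0.237 UMIs per knockout and 0.076 per control cell (3.12), Zfp598 was at 1.42, Gcn1l1 was at 1.301 and Hbs1l at 1.298, and Edf1 had 5.48 and 5.74 (0.955).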

How the data were processed

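Islet cells of 2 knockout mice and 1 control mouse were profiled with 10X Genomics droplets, per the labels; the submitters' processing notes list Cell Ranger 3.0.0 and mm10. Not given in the sources used here are cell filters, doublet treatment, cell typing and the authors' test. Barcodes were not analysed here.

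The authors deposited a signal value per gene and column, the mean UMIs per cell, not scaled for depth: each value times the column's cell number gave whole UMIs within 0.01. The beta-cell table pools both knockout mice. Columns of knockout mice could not be tied to a particular sample and are called first and second. The deposited p-values and q-values rest on cells, which are not replicates, and served only as the rule for listing and to rank Rpl17.

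Members and lists were chosen with earlier results of these data known. Genes were named by a fixed rule: the 5 highest and 5 lowest beta-cell folds per subunit, members by level in alpha and delta cells (up to 14 a table), the known special members, and 2 from each end of each list; genes beyond it, such as the highest folds in alpha and delta cells, Eef1a1, Zfp598 and those set across cell types, were chosen after their values were seen. Ratios have no pseudocount. Intervals are Clopper-Pearson on the split of UMIs and cover counting error only. edgeR's count test had been planned for alpha and delta cells. It was not run, although whole UMIs could be recovered from the deposited means. The means themselves were used instead, with limma 3.58.1 (trend) on log2(value + 10th percentile), 0.18 and 0.346 UMIs per cell. This limma fit covered all listed genes, with Benjamini-Hochberg adjustment and 1 residual degree of freedom. Its spread comes from the knockout mice and is shared across the listed genes, which are not replicates. How far the fit shares it differs between scalings, so its p-values and counts cannot be compared from one scaling to another. Its genes were also already selected, and its p-values are too small. The fit was checked on simulated data with log2 changes of 2, up and down, which is larger than any seen for the Rpl and Rps genes in these cells. That check does not show how often changes of the size seen here would be called. Promoters came from RefSeq (GRCm38.p6) and gene lengths from GENCODE M21 (complete coding sequences). Single values of a few genes are not reported here and those genes are left off the plots that name genes; counts and sums include them.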

Additional observations from a re-analysis of the deposited data

Results flagged for a closer look

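Rpl39 pointed in opposite directions in 2 cell types. In beta cells its ratio of knockout over control was 0.978, while in delta cells it was 1.20 in the first and 1.11 in the second knockout mouse. Scaled without hormone genes, it was at 0.812 in beta cells and at 1.05 and 1.08 in delta cells. The difference between the cell types was not tested.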

How the results depend on the processing

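Scaling decided how far the beta-cell family stood above the control. Scaled to the full listed total, 59 genes passed 1.5-fold, the median log2 ratio was 0.67 and the summed ratio 1.57. Scaled without Ins1, Ins2 and Iapp these were 0, 0.057 and 1.03, and with the members also left out of the total, an alternative chosen after seeing the data, the median was 0.067 and the sum 1.03. Centred on the median of all listed genes, 12 genes were higher, 0 passed 1.5-fold, 1 was lower by that much (Rpl12), the median was -0.21 and the summed ratio 0.853. At a fold of 2, 0 were higher. Leaving out genes under 1 UMI per cell, paralogs, or adding a pseudocount left each of these values within its interval or within 1.5 times.

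In alpha cells the median log2 ratio of 0.17 became 0.35 with the full listed total, 0.30 without hormones and members, and 0.47 when centred. In delta cells the median of 0.10 became 0.46, then -0.019 without hormones, and -0.29 when centred; 15 genes were higher in both mice without hormones (also without the members), and limma called 24 with the full total against 0. Leaving out a knockout mouse gave 18 to 19 higher genes and medians of 0.11 to 0.23 in alpha cells, and 27 to 38 and 0.04 to 0.21 in delta cells. The delta over beta level of 0.84 became 1.19 when scaled. These scalings divide by totals in which the hormone genes' share differs between genotypes; the cause was not tested further. No paired analysis was possible because there was 1 control mouse and the columns could not be matched by number.

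With 1 control mouse, 78 to 304 cells per column in alpha and delta cells and knockout beta cells pooled, intervals understate the error, and genes the authors did not list were not analysed here.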
